A study of Mus musculus with 27 samples.

Results

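Sarcolipin and 8 further genes of sarcoplasmic reticulum calcium handling were followed through 21 days after volumetric muscle loss, the removal of more muscle than the tissue can replace. The 9 genes were Sln, Pln, Atp2a1, Atp2a2, Casq1, Casq2, Ryr1, Jph1 and Pvalb, taken by symbol from a table of 54532 genes. All 9 were among the 14630 genes that passed the filter on low values and were tested. They were selected on earlier results of these same samples, Sln for its FPKM after injury and the others as a calcium-handling set with their FPKM by group in view, so their levels and differences are given as a description, with no p-value. Counts of members past a threshold describe the same values and support nothing.

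Messenger RNA of tibialis anterior muscle, the fast shin muscle that lifts the foot, was sequenced in 27 samples. All came from C57BL/6 male mice, whose age is given as 8 weeks in every group, with no separate age at which the muscle was taken. In 4 groups, 40% of the tibialis anterior had been cut out and the muscle was taken 3 days (5 samples), 7 days (6 samples), 14 days (6 samples) or 21 days (5 samples) later, and 5 samples came from muscles with no injury. The sources differ on whether 1 leg or both were operated, and nothing in the labels ties a sample to an animal, so p-values measure the spread between samples only. Levels are FPKM, fragment counts scaled by exon length and sequencing depth, and a difference is that of the group means of log2(FPKM + 1) with its standard error (SE), which understates the change of genes at low levels.

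A muscle fibre contracts when calcium leaves the sarcoplasmic reticulum through the ryanodine receptor and relaxes when SERCA pumps return it. Sarcolipin and phospholamban are small membrane peptides that bind the pump and lower its uptake of calcium, sarcolipin being best known in atria, slow muscle and developing muscle of rodents. Fast fibres use the pump SERCA1, the luminal buffer calsequestrin 1 and the cytosolic buffer parvalbumin, while slow fibres and heart use SERCA2 and calsequestrin 2.

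The coding sequences of the pump regulators are shown because Sln and Pln are short peptides of like role whose levels are set side by side further on. Sln lies at chr9:53850164-53854560 on the plus strand of GRCm38, the build of all positions given here, and its coding sequence lies within exon 2 of 2, at chr9:53853473-53853568. Pln lies at chr10:53337667-53345987 on the plus strand, and its coding sequence lies within exon 2 of 2, at chr10:53343864-53344022. Both are from the GENCODE M21 transcripts, with the start and stop codons in capitals, and hold 31 codons in Sln and 52 in Pln before the stop.
Sln coding sequence: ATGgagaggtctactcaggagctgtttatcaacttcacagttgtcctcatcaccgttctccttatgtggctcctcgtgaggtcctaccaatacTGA
Pln coding sequence: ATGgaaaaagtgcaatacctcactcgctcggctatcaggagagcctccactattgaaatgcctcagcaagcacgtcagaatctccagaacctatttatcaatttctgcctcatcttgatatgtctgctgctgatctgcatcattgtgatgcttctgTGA

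Promoters of 4 members whose day 3 levels lay on either side of no injury are shown, from 250 bases before to 50 bases after a RefSeq start site (GRCm38.p6). Capitals mark matches to CAGCTG, an E-box read by myogenic factors such as MyoD and the same on both strands, or to the MEF2 motif, searched on both strands. The genes that were lower on day 3 are Atp2a1 (chr7:126463024-126463323, minus strand, CAGCTG at -55 from the start site), Casq1 (chr1:172219846-172220145, minus strand, CAGCTG at -195) and Pvalb (chr15:78206351-78206650, minus strand, MEF2 motif at -180). The gene that was higher is Casq2 (chr3:102086165-102086464, plus strand, MEF2 motif at -69).
Atp2a1 promoter: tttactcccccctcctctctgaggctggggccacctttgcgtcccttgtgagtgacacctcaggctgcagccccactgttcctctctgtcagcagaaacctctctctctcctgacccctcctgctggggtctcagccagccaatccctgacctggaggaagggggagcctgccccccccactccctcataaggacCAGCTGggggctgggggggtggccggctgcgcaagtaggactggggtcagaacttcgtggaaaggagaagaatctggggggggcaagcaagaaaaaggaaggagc
Casq1 promoter: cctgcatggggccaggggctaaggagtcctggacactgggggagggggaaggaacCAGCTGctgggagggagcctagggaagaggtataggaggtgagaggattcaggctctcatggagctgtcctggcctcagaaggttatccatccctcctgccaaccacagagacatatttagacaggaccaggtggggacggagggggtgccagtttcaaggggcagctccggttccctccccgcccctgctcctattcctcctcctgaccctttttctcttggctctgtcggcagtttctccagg
Pvalb promoter: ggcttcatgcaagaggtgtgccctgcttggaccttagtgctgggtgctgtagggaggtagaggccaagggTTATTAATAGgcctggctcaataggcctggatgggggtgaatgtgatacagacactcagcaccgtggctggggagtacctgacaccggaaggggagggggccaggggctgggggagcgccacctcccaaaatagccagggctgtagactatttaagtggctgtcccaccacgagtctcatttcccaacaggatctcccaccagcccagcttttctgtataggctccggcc
Casq2 promoter: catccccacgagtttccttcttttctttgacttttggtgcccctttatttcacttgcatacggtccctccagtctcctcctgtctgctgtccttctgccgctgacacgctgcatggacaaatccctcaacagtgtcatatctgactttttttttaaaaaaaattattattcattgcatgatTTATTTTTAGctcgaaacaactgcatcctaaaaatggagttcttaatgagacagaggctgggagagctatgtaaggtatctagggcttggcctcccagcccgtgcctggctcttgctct

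Of 32851 promoters of the same length, 16.3% held CAGCTG and 3.19% the MEF2 motif. The Pln promoter held 1 CAGCTG and no MEF2 match, and the Ryr1 promoter held neither. A match describes the letters in this window and marks no binding site. The promoters of Sln, Atp2a2 and Jph1 were not searched.

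Whole reads recovered from the values ranged from 14376395 to 24436763 a sample, with a median of 17398586. The 9 genes together held a median of 3.32% of all reads without injury, 1.57% on day 3, 2.58% on day 7, 3.04% on day 14 and 3.43% on day 21. The deposited FPKM also carries a scaling between samples, a denominator that averaged 0.782 of the sample's own reads without injury and 1.25 on day 3. Giving every sample the same sum raised the median difference of all tested genes from 0.01 to 0.51 on day 3, from 0.03 to 0.48 on day 7, from 0.02 to 0.29 on day 14 and from 0.01 to 0.12 on day 21 (log2). Over 14510 tested genes outside the lists, 9 of 27 libraries lay nearest the mean of another group, among them day 7 replicate 3 (nearest no injury), day 7 replicate 6 (nearest day 21), day 7 replicate 5 (nearest day 3) and day 3 replicate 5 (nearest day 7).

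The muscles carried the markers of fast muscle. Summed FPKM of 6 fast fibre markers was 44848 to 51397 without injury and 9712 to 34939.5 on day 3, against 37.5 to 235 and 127 to 294 for 6 slow fibre markers. Tnnc2, fast troponin C, was between 0 and 0.94 FPKM in all 27 samples and listed at 0 in 6, so it marked nothing here. Whether the RNA itself or only its counting was low was not tested. Of the atrial markers, Myl7 was listed at 0 in all 27 samples and Nppa in 24. Fewer cells of a type and less RNA per cell cannot be told apart in these bulk samples.

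Sln, sarcolipin, was low without injury and among the more abundant transcripts of the injured muscle. The 5 muscles without injury held 1.88, 2.42, 2.39, 1.17 and 1.296 FPKM, which rest on 19 to 55 reads. On day 3 the values were 34.4, 45.9, 34.6, 55.8 and 138, every one above every muscle without injury.

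On day 7 the 6 muscles spread over more than the whole distance between the other groups. Replicates 1, 2 and 4 held 655, 466 and 972 FPKM, replicate 5 held 28.1, replicate 6 held 7.37 and replicate 3 held 0.40, which was 9 reads and below every muscle without injury. On day 14 the lowest value was 334, the median 588 and the highest 686. The day 21 muscles held 433, 531, 303, 265 and 125 FPKM. All were above every muscle without injury, and only the lowest, replicate 5, lay inside the range of day 3.

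The group means ± SD were 1.83 ± 0.59 FPKM without injury (n = 5), 61.8 ± 43.6 on day 3 (n = 5), 355 ± 409 on day 7 (n = 6), 550.4 ± 122 on day 14 (n = 6) and 331 ± 157 on day 21 (n = 5). Against no injury the ratio of means was 33.7 on day 3, 194 on day 7, 300.3 on day 14 and 181 on day 21. The differences in mean log2(FPKM + 1) were 4.28 (SE 1.12), 4.62 (SE 1.08), 7.60 (SE 1.08) and 6.74 (SE 1.12). Ordered from high to low, the groups were day 14, day 7, day 21, day 3 and no injury, and only the last step separated without overlap. By this difference, Sln ranked 29 of 14630 tested genes on day 3, 2 on day 7, and 1 at both day 14 and day 21, and by mean FPKM it went from rank 8103 without injury to rank 71 on day 14.

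**Figure D1:**
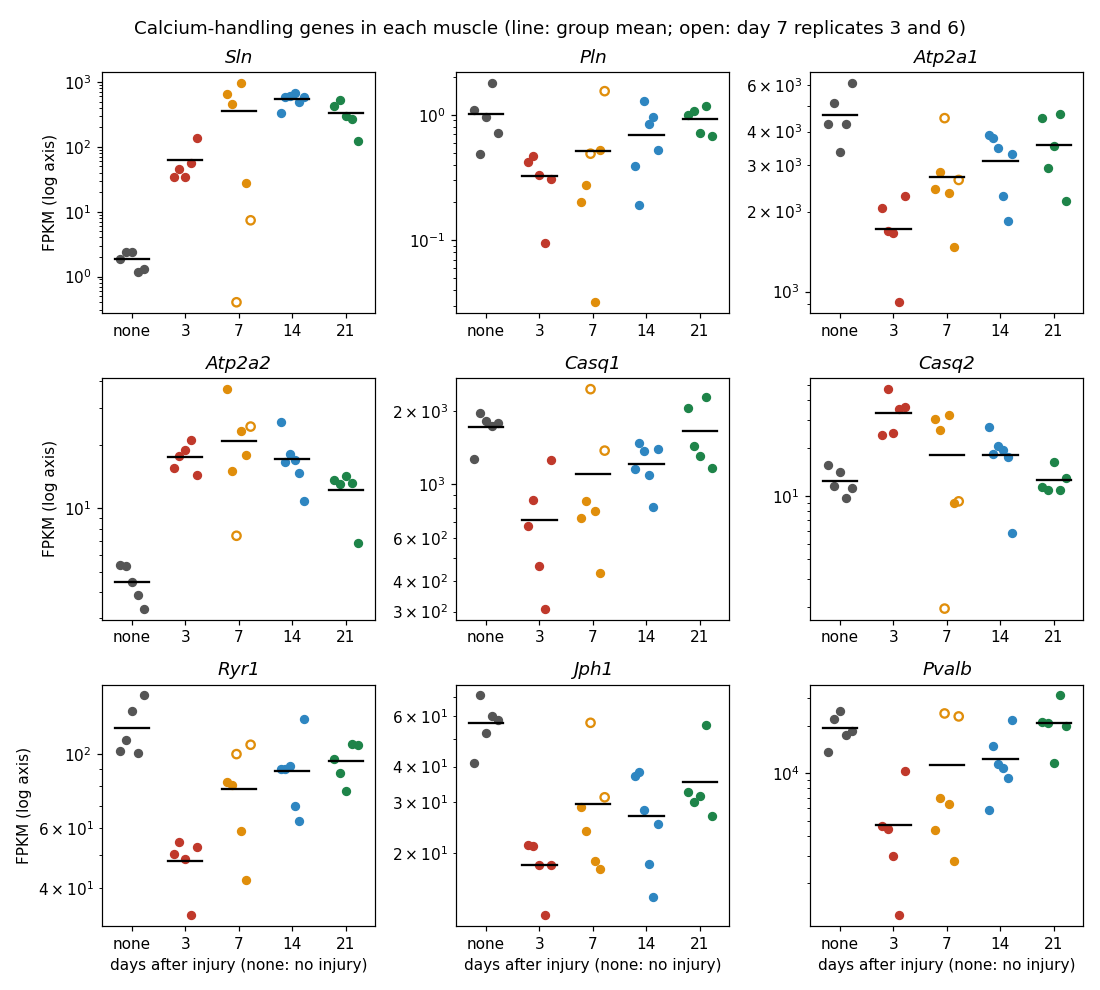
FPKM on a log axis of each of the 9 genes in every muscle, by days after injury, with a black line at each group mean and open circles for day 7 replicates 3 and 6. Sln sits at 1.17 to 2.42 without injury and at 334 to 686 on day 14, and day 7 spans 0.40 to 972, while Pvalb of the open circles lies within the range without injury.

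Markers of other cells and of new fibres differed between the same libraries. The sum of the regenerating fibre markers Myh3, Myh8 and Myog, the embryonic and neonatal myosins and myogenin, was 1.18 to 3.96 FPKM without injury and 114 to 275 on day 3. It was 45.2 to 101 on day 14 and 14.4 to 62.0 on day 21. Within day 7 it was 136, 98.1, 182 and 143 in replicates 1, 2, 4 and 5 but 3.2 and 3.3 in replicates 3 and 6, the pair with the lowest Sln. Replicate 5 had 143 beside a Sln level of 28.1. Most of its sum was Myog, at 121 FPKM. Its Myh3 was 20.1 and its Myh8 1.81, against Myh8 of 31.6, 17.4 and 55.3 in replicates 1, 2 and 4. In day 3 replicate 5, with Sln at 138, the sum was the lowest of its group and Myh8 the highest, at 45.5. Every day 14 muscle had more Sln than every day 3 muscle, and a lower marker sum. Taken singly, Myh8 (3.13 to 16.3 on day 14, 7.16 to 45.5 on day 3) and Myog overlapped between these days, and Myh3 did not.

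The sum of the macrophage markers Adgre1, Cd68, Ptprc and Csf1r was 2.72 to 3.57 FPKM without injury, 46.9 to 315 on day 3 and 6.14 to 9.64 on day 21. In day 7 replicate 5 it was 298, above the other 5 day 7 libraries at 5.86 to 66.2, and Sln was 28.1 there. The part of either marker list in the Sln values was not tested.

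**Figure D2:**
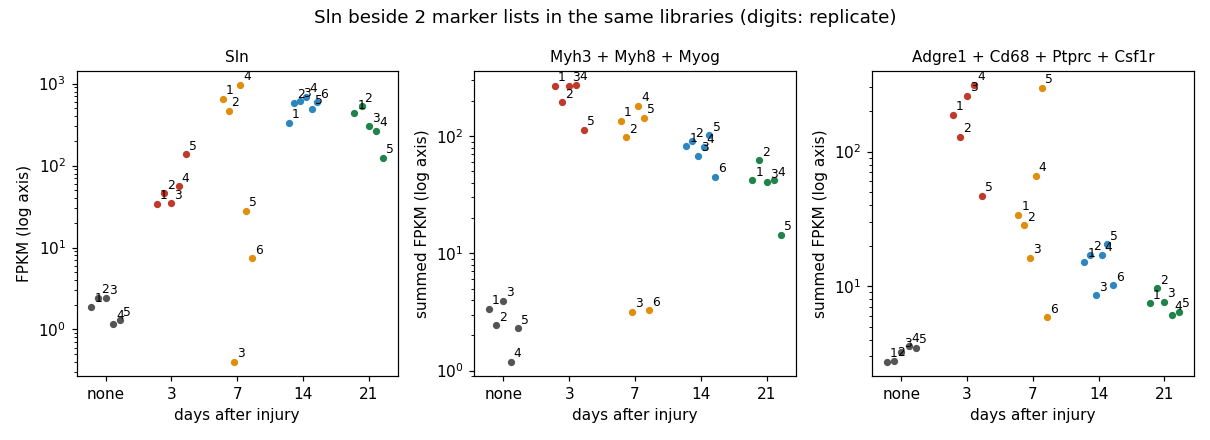
FPKM of Sln (left) and summed FPKM of 3 regenerating fibre markers (middle) and 4 macrophage markers (right), log axes, 1 point a muscle with its replicate number, by days after injury. Day 7 replicates 3 and 6 are low for Sln (0.40 and 7.37) and for the regenerating fibre markers (3.2 and 3.3), and day 7 replicate 5 is high for the macrophage markers (298).

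Without day 7 replicates 3 and 6, a choice made after their values were seen, the Sln difference on day 7 was 6.78 in place of 4.62. Scaling every sample to the same sum gave 4.95 on day 3, 5.21 on day 7, 7.92 on day 14 and 6.78 on day 21. With each library left out in turn, it ranged from 3.94 to 4.44 on day 3, 3.85 (without day 7 replicate 4) to 5.74 (without day 7 replicate 3) on day 7, 7.51 to 7.73 on day 14 and 6.53 to 7.05 on day 21.

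The tested genes with a pattern over the 27 samples most like Sln, by Pearson correlation of log2(FPKM + 1), were Krt18 (r = 0.98), Krt8 (r = 0.97), Cpne2 (r = 0.95), Gadd45a (r = 0.93) and Plekhh2 (r = 0.93). Krt18 and Krt8 encode partner keratins of simple epithelia, Cpne2 a copine that binds membranes with calcium, and Gadd45a a protein of the growth arrest response. Over the 22 injured muscles alone r was 0.96 for both keratins, 0.90 for Cpne2 and 0.87 for both Gadd45a and Plekhh2. Krt18 averaged 0.19 FPKM without injury, 9.48 on day 3, 98.4 on day 7, 130.3 on day 14 and 100.1 on day 21, and day 7 replicate 3, the muscle with the lowest Sln of its group, had the lowest Krt18 too. The most unlike were Atmin (r = -0.87), Amd2 (r = -0.86), Asb4 (r = -0.84), Slc2a3 (r = -0.83) and Nup210 (r = -0.83). In the injured muscles alone these were -0.73, -0.74, -0.66, -0.78 and -0.70. Among the other 8 calcium genes r ran from -0.53 for Jph1 to 0.68 for Atp2a2. These points share groups and libraries, so the values describe likeness and no more.

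Pln, phospholamban, stayed low throughout, and no day's mean was above that without injury. It held 0.48 to 1.80 FPKM without injury and 0.10 to 0.47 on day 3, ranges that did not overlap, on 23 to 61 and 6 to 24 reads. Its mean ± SD was 1.01 ± 0.50 FPKM without injury, 0.32 ± 0.14 on day 3, 0.51 ± 0.54 on day 7, 0.70 ± 0.40 on day 14 and 0.93 ± 0.22 on day 21.

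The difference was -0.58 (SE 0.20) on day 3 and -0.04 (SE 0.20) on day 21. Relative to 8 myofibre markers the differences were 0.21, 0.21, 0.10 and 0.24 on the 4 days, so their sign turned with that scaling. Reads of the overlapping genes Cep85l and Gm47644 on the other strand cannot be told from Pln reads, since the library kept no strand. Of the FPKM of Pln and Sln together, Pln made up 16.7% to 60.5% without injury, 0.17% to 1.196% on day 3 and 0.20% to 0.54% on day 21.

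Atp2a1, the fast-fibre pump SERCA1 (chr7:126445858-126463108, minus strand), was lower in all 5 muscles of day 3 than in any without injury. The muscles without injury held 4260.0, 5103, 3350.2, 4265 and 6103 FPKM. On day 3 they held 2055, 1695, 1659, 911 and 2292. On day 21 they held 4512, 2911, 3519, 4651 and 2197, and 3 of the 5 lay within the range without injury.

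Between these times Atp2a1 ran from 1472 through a median of 2527 to 4494 on day 7, where replicate 3 was highest, and from 1837 through 3384 to 3870.1 on day 14. The difference was -1.46 (SE 0.30) on day 3, -0.83 (SE 0.29) on day 7, -0.60 (SE 0.29) on day 14 and -0.40 (SE 0.30) on day 21. With every sample scaled to the same sum the differences were -0.63, -0.10, -0.12 and -0.21, and quantile normalization turned the sign on day 7, to 0.03, and on day 14, to 0.05. Rabep2 overlaps it on the other strand and reached 65.8 FPKM at most.

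Atp2a2, the pump SERCA2 that slow fibres and heart use (chr5:122453513-122502225, minus strand), was above every muscle without injury in all 22 injured muscles. Its FPKM pools 5 annotated transcripts, and which cells held them was not tested. Without injury the values were 5.35, 5.29, 4.46, 3.87 and 3.34 FPKM. On day 3 they were 15.5, 17.7, 18.9, 21.0 and 14.4, and on day 21 they were 13.6, 13.1, 14.2, 13.2 and 6.82. On day 7 the lowest was 7.39 (replicate 3), the median 20.5 and the highest 36.7, and on day 14 these were 10.9, 16.8 and 25.8.

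The difference of Atp2a2 was 1.76 (SE 0.27) on day 3, 1.87 (SE 0.26) on day 7, 1.70 (SE 0.26) on day 14 and 1.24 (SE 0.27) on day 21. Every scaling tried left these positive, and the same-sum scaling gave 2.49, 2.51, 2.10 and 1.38, the last no longer past the threshold. Atp2a2 and Sln were the pair of members still separate from no injury on day 21. Of the 6 slow fibre markers, 3 passed limma's test upwards on day 3, beside 23.4% of all genes. The sum of these markers on day 21 (66.2 to 140.4 FPKM) lay inside the range without injury (37.5 to 235).

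Despite its higher level, SERCA2 transcript remained a small part of the pump transcripts. Atp2a2 made up 0.10% ± 0.03 (SD, n = 5) of the FPKM of Atp2a2 and Atp2a1 together without injury. The share was 1.16% ± 0.65 on day 3 (n = 5), 0.88% ± 0.47 on day 7 (n = 6), 0.58% ± 0.18 on day 14 (n = 6) and 0.35% ± 0.07 on day 21 (n = 5). In every injured muscle it was above the 0.13% that was highest without injury, the lowest being 0.16% on day 7.

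**Figure D3:**
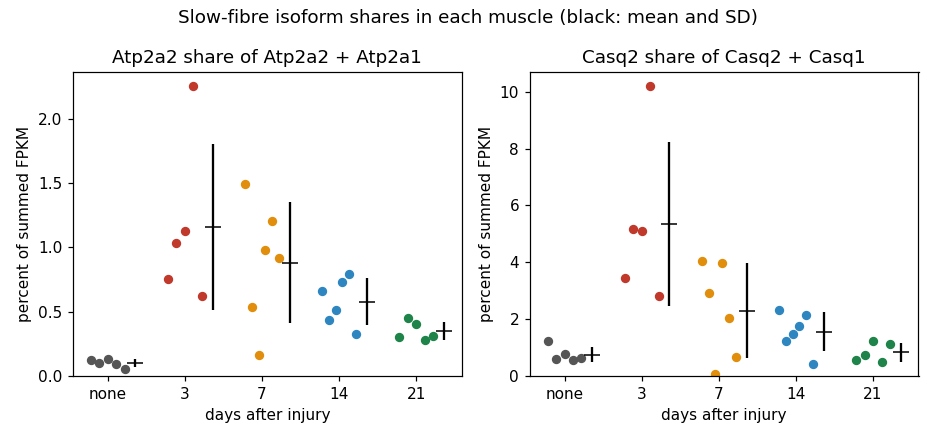
Share of Atp2a2 in the summed FPKM of Atp2a2 and Atp2a1 (left) and of Casq2 in that of Casq2 and Casq1 (right), in percent, 1 point a muscle, with the group mean and SD in black. Both shares are highest on day 3, at means of 1.16% and 5.35%, and the day 21 means are 0.35% and 0.82%.

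Casq1, calsequestrin 1, the main calcium buffer inside the fast-fibre reticulum (chr1:172209894-172219868, minus strand), had the same order of group means as Atp2a1. It held 1266 to 1961 FPKM without injury, 308 to 1253 on day 3, 433 to 2459 on day 7, 803 to 1478 on day 14 and 1163 to 2294 on day 21. The day 3 range lay wholly below that without injury, by a narrow gap, and the other days overlapped it. The differences were -1.41 (SE 0.36), -0.84 (SE 0.35), -0.51 (SE 0.35) and -0.09 (SE 0.36). With the same-sum scaling they were -0.59, -0.12, -0.03 and 0.11, so that the sign on day 21 turned, and quantile normalization turned it on day 14, to 0.14, and day 21, to 0.17.

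Casq2, calsequestrin 2 of slow fibres and heart (chr3:102086415-102146514, plus strand), was higher on day 3 and overlapped no injury on the later days. The muscles without injury held 15.6, 11.6, 14.1, 9.65 and 11.1 FPKM. On day 3 they held 24.01, 46.9, 24.9, 35.0 and 36.5, all above. On day 21 they held 11.3, 10.9, 16.5, 10.9 and 13.03, of which 4 lay within the range without injury and 1 just above it.

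On day 7 Casq2 was high in the same 3 muscles as Sln, with 30.6, 25.9 and 32.3 FPKM in replicates 1, 2 and 4 and 9.04, 9.24 and 1.95 in replicates 5, 6 and 3. On day 14 the lowest was 5.83, the median 18.9 and the highest 27.1. The differences were 1.34 (SE 0.45), 0.11 (SE 0.43), 0.42 (SE 0.43) and 0.01 (SE 0.45), and without day 7 replicates 3 and 6 that of day 7 was 0.80. The Casq2 share of both calsequestrins was 0.75% ± 0.28 without injury (n = 5), 5.35% ± 2.90 on day 3 (n = 5) and 0.82% ± 0.34 on day 21 (n = 5).

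Ryr1, the calcium release channel (chr7:29003344-29125179, minus strand), and Jph1, junctophilin 1, which ties the reticulum to the surface membrane at the triad (chr1:16964560-17097889, minus strand), were both lower on day 3 without overlap. Ryr1 held 101 to 149 FPKM without injury and 33.2 to 54.8 on day 3. It was 42.2 to 106 on day 7, 63.1 to 126 on day 14 and 77.6 to 107 on day 21, each overlapping no injury. The differences were -1.29 (SE 0.21), -0.64 (SE 0.21), -0.44 (SE 0.21) and -0.32 (SE 0.21), and the same-sum scaling gave -0.48, 0.08, 0.04 and -0.12, with the sign turned on day 7 and day 14.

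Jph1 held 41.2 to 70.7 FPKM without injury and 12.2 to 21.4 on day 3. On day 14 it held 14.0 to 38.3, again wholly below, whereas Atp2a1, Casq1, Ryr1, Pvalb and Pln overlapped no injury at that day. On day 21 it held 32.5, 30.1, 31.5, 55.6 and 26.8, so that 4 muscles lay below the range without injury and replicate 4 within it. The differences were -1.59 (SE 0.28), -1.003 (SE 0.27), -1.11 (SE 0.27) and -0.69 (SE 0.28), and with the same-sum scaling -0.79, -0.30, -0.64 and -0.50.

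Pvalb, parvalbumin, the soluble calcium buffer of fast fibres (chr15:78191114-78206400, minus strand), had the largest negative difference of the 9 genes on day 3 and a range that covered that of no injury by day 21. Without injury the muscles held 13676, 21910.0, 24764, 17399 and 18549 FPKM, rank 7 of 14630 tested genes by the mean. On day 3 they held 4607, 4395, 2997, 1264 and 10251. On day 21 they held 21060.0, 20737, 11559.6, 30992 and 19850.0 FPKM.

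On day 7 Pvalb was 2792 at the lowest, 6661 at the median and 23853 at the highest, and the 2 highest were replicates 3 and 6 at 23853 and 22844. On day 14 these values were 5804, 11111 and 21645. The differences were -2.31 (SE 0.53), -1.21 (SE 0.51), -0.73 (SE 0.51) and 0.07 (SE 0.53), and the same-sum scaling gave -1.49, -0.48, -0.25 and 0.27. Without day 7 replicates 3 and 6 the day 7 difference was -1.97.

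**Figure D4:**
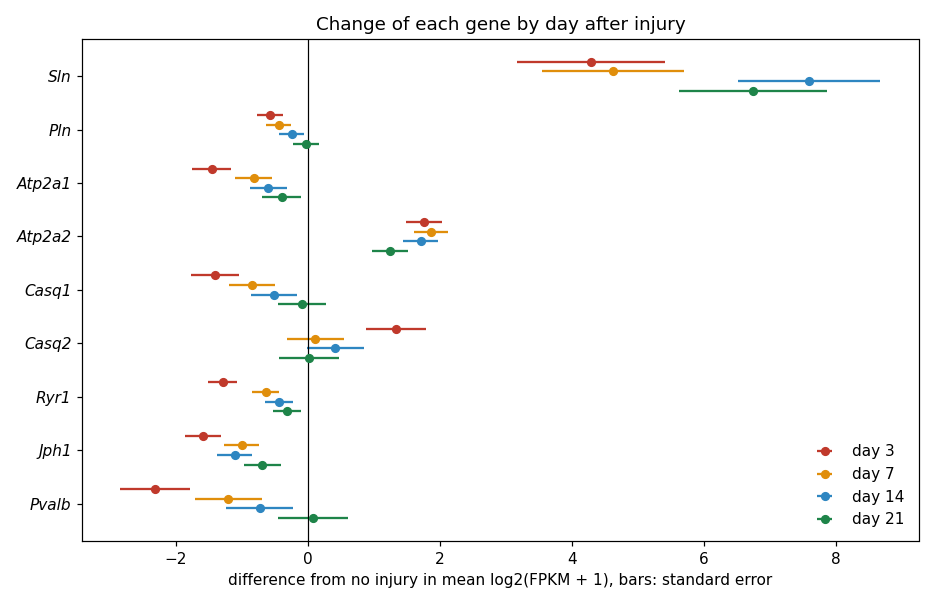
Difference from no injury in mean log2(FPKM + 1) of each gene (points) with its standard error (bars), 1 colour a day. Sln reaches 7.60 on day 14 and Atp2a2 stays between 1.24 and 1.87, while Atp2a1, Casq1, Ryr1, Jph1 and Pvalb lie lowest on day 3, at -1.29 to -2.31.

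Counted together, 3 members passed the threshold upwards and 6 downwards on day 3, where 23.4% and 19.8% of all 14630 genes did (limma, adjusted p under 0.05). All 9 were separate from no injury without overlap, 3 above and 6 below, as 19.8% and 16.5% of all genes were. On day 7 the counts were 2 up and 3 down, beside 15% and 14.4%, with 1 member wholly above no injury and 0 below, beside 7.25% and 5.37%. On day 14 they were 2 and 1, beside 9.02% and 11.3%, and the same numbers were wholly above and below, beside 7.67% and 8.05%. On day 21 the limma counts were 2 and 0, beside 1.74% and 1.69%. At an unadjusted p under 0.05 they were 2 and 1, where 2898 of the 14630 genes were past it in either direction. Wholly above no injury were 2 and below 0, beside 5.26% and 5.13%. The list was made from these contrasts, so nothing is read from the counts.

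The median difference of the 9 genes was -1.29 on day 3, -0.64 on day 7, -0.44 on day 14 and -0.04 on day 21, beside 0.01 to 0.03 over all tested genes. With the same-sum scaling 5 members were past the threshold on day 3 (3 up, 2 down), 2 on day 7 and 2 on day 14, all of them up, and 1 on day 21. On that scale 46.9% of all genes were called higher and 2.2% lower on day 3, 43.1% and 1.43% on day 7, 11.5% and 0.731% on day 14, and 0.287% and 0.0478% on day 21. Relative to the 8 myofibre markers 7 members were past the threshold on day 3, where 66.6% of all genes were called higher and 1.88% lower. Relative to the 7 left without Tnnc2, 6 members were, beside 71.1% and 1.2%. The day 7 count moved most with single libraries. It was 8 without day 7 replicate 6 and 3 without no injury replicate 5, day 7 replicate 4 or day 7 replicate 5.

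Day 21 was also set directly against day 3. Pvalb, Atp2a1, Casq1, Ryr1, Jph1 and Pln passed the threshold upwards and Casq2 downwards, beside 9.23% and 16.2% of all genes. Of the 9, 4 lay wholly above day 3 and 2 wholly below, beside 6.93% and 12.2%. Pvalb was 4.43 times as high by the means (2.39, SE 0.53) and Ryr1 1.98 times (0.98, SE 0.21), with no overlap for either. Atp2a2 was -0.52 (SE 0.27) and Sln 2.46 (SE 1.12), neither past the threshold. With the same-sum scaling Pvalb (1.76) alone stayed past it upwards, and Atp2a1 (0.43), Casq1 (0.70), Ryr1 (0.36), Jph1 (0.29) and Pln (0.36) did not, while Casq2 (-1.93) and Atp2a2 (-1.11) were past it downwards, beside 1.16% and 33.1% of all genes. Atp2a2 was past it too with own totals of reads (-0.96) and relative to the myofibre markers (-1.03). Sln was past it upwards with only the 2 groups compared (SE 0.44) and without day 7 replicates 3 and 6 (SE 0.61). Casq2 was not past it without day 3 replicate 5 and day 7 replicate 5 together (-1.28), nor was Pln (0.54), whose sign turned relative to the markers without Tnnc2 (-0.02). Over the alternatives run, 1 to 7 members were past it upwards and 0 to 2 downwards.

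A further 72 calcium genes were listed by function, of which 71 were in the table and 69 were tested. Strit1 was not matched in the table, and Ryr3 and Trpc1 were too low to test. On day 3, 12 rose and 28 fell (limma, adjusted p under 0.05), where 23.4% and 19.8% of all genes did. On day 7 these were 6 and 21, beside 15% and 14.4% of all genes, and on day 14 they were 7 and 15, beside 9.02% and 11.3%. On day 21 they were 0 and 1, beside 1.74% and 1.69%. At an unadjusted p under 0.05 (limma) they were 6 and 13, where 2898 of 14630 tested genes were past it in either direction. These directions depend on the scaling. With the same sum in every sample, where the median of all genes stood at 0.51, 29 rose and 5 fell on day 3, beside 46.9% and 2.2% of all genes, and with each sample's own total of reads 28 rose and 12 fell, beside 44.7% and 4.22%. On day 7 the same sum gave 28 and 1, beside 43.1% and 1.43% of all genes, and on day 14 it gave 7 that rose, beside 11.5%. A fall named below is therefore one on the deposited scale. The median difference of the 69 was -0.19 on day 3 and -0.09 on day 21 on the deposited scale, and the 4 comparisons with no injury share the same 5 control samples.

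Among the micropeptides that regulate the pump, Mrln, myoregulin, the inhibitor best known in skeletal muscle, fell from 48.2 ± 5.87 FPKM (n = 5) to 11.1 ± 3.82 on day 3 (n = 5), a difference of -2.09 (SE 0.42, limma adjusted p = 0.000304). It was 24.8 ± 8.24 on day 21, where it missed the threshold (limma adjusted p = 0.188). Its day 21 range of 14.6 to 35.5 FPKM still lay wholly below the 42.3 to 56.6 without injury. Smim6, whose product endoregulin is the inhibitor of non-muscle cells, rose on day 3 by 2.15 (SE 0.27, limma adjusted p = 2.16e-06). Its 5 muscles of day 3 held 0.77 to 5.39 FPKM, and those without injury 0 to 0.24. The gene 1810037I17Rik, whose product is another-regulin, was 31.5 ± 6.95 FPKM without injury and 34.3 ± 2.49 on day 3, with no call at any day, and the same-sum scaling turned its day 7 difference from -0.11 to 0.59 and called it higher on day 3 (0.94). On that scale Mrln still fell on day 3, by 1.31, and Smim6 still rose, by 2.52.

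Of the 18 triad and voltage sensor genes, 9 fell and 2 rose on day 3, beside 19.8% and 23.4% of all genes. Trdn, triadin, which anchors calsequestrin to the release channel, fell from 138 ± 39.4 to 49.4 ± 22.4 FPKM (-1.57, SE 0.40, limma adjusted p = 0.00265) and was 141 ± 43.6 on day 21. Hrc, Tmem38a, Cacna2d1, Jph2, Stac3, Srl, Asph and Jsrp1 fell with it. With the same-sum scaling all 9 differences stayed negative but only that of Trdn (-0.76) passed the test. On that scale 6 genes of the list rose, beside 46.9% of all genes. Of the 18 genes, 14 lay below the median of all genes on the deposited scale and 11 on the same-sum scale. The 2 that rose on the deposited scale were Fkbp1a and Fkbp1b, which encode the FK506-binding proteins that stabilise ryanodine receptors. Fkbp1b went from 0.15 ± 0.15 to 3.46 ± 1.95 FPKM. No gene of this list passed the test on day 21 (limma). At an unadjusted p under 0.05, 1 was higher and 0 lower, where 2898 of 14630 tested genes were past it in either direction.

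Of 8 calcium-binding proteins of the general endoplasmic reticulum, 6 rose on day 3 and 0 fell, beside 23.4% and 19.8% of all genes (limma). At an unadjusted p under 0.05 these were 7 and 0, where 7260 of 14630 tested genes were past it in either direction. Rcn3, a reticulocalbin of the secretory pathway, rose from 7.83 ± 2.31 to 55.7 ± 13.1 FPKM (2.69, SE 0.30, limma adjusted p = 4.79e-07), and Rcn1 from 2.66 ± 0.66 to 14.9 ± 2.60 (2.12, SE 0.21, limma adjusted p = 9.14e-08). Calr, Hsp90b1, Canx and Calu rose by 0.72 to 1.12. All 8 rose on the same-sum scale, beside 46.9% of all genes. Fibroblast and macrophage markers were higher on day 3 as well, 2 of 3 and 4 of 4 past the test, beside 23.4% of all genes. The part of these markers in these values was not tested.

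Of the 14 store-operated entry and other calcium transport genes, 5 fell and 1 rose on day 3, beside 19.8% and 23.4% of all genes. Stim1, the reticulum's calcium sensor, fell from 18.3 ± 2.52 to 9.11 ± 1.71 FPKM, while Orai2, a store-operated channel subunit, rose from 0.19 ± 0.11 to 1.22 ± 0.27. On the same-sum scale 4 of the list rose, beside 46.9% of all genes, and Stim1, at -0.18, was not called. Among 7 genes of the mitochondrial uniporter, which carries calcium into mitochondria, 2 fell and 1 rose, beside the same 19.8% and 23.4%. The same-sum scaling gave 4 that rose, beside 46.9%. The gene that rose on the deposited scale was Mcub, the uniporter's inhibitory subunit. It went from 0.73 ± 0.35 to 7.94 ± 2.95 FPKM (2.34, SE 0.29, limma adjusted p = 1.83e-06), and was 1.07 ± 0.39 on day 21.

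Of 19 genes of calmodulin, calcineurin and NFAT signalling, the calcium-dependent route to fibre-type genes, 11 fell and 1 rose on day 3. Of all genes 19.8% fell and 23.4% rose. Myoz1, a Z-disc binder of calcineurin, fell from 1432 ± 126 to 513 ± 231 FPKM (-1.63, SE 0.38, limma adjusted p = 0.00125). Camk2a, a calmodulin-dependent kinase, fell from 46.9 ± 8.53 to 15.4 ± 3.61 (-1.56, SE 0.33, limma adjusted p = 0.0005). Ppp3cb, a catalytic subunit of calcineurin, fell by 1.54, and Nfatc4, an NFAT factor, rose by 0.72. On the same-sum scale 3 fell, Myoz1 (-0.81), Ppp3cb (-0.77) and Camk2a (-0.76), and 5 rose, beside 2.2% and 46.9% of all genes.

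Nfatc3, another NFAT factor, was the related gene called on day 21, at 1.60 ± 0.29 FPKM against 2.48 ± 0.46 without injury (-0.42, SE 0.12, limma adjusted p = 0.0482). Its ranges overlapped, and its call was lost with the same-sum scaling (-0.26) and without the filter on low values (-0.42). The same-sum scaling also turned its sign on day 3, to 0.09, and on day 7, to 0.20.

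**Figure D5:**
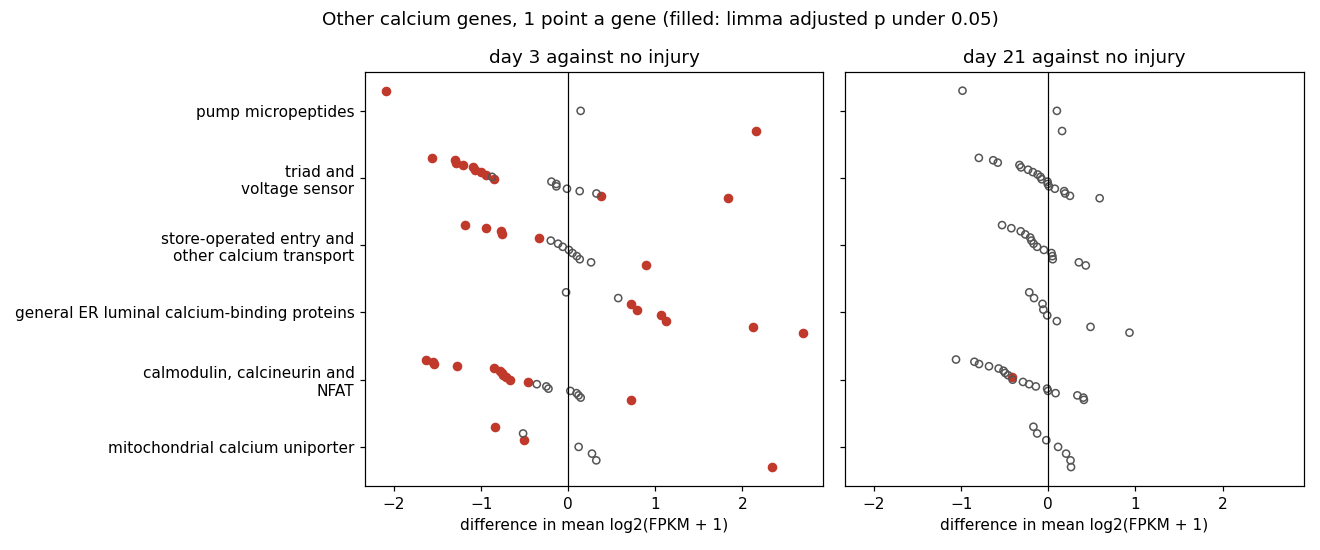
Difference from no injury in mean log2(FPKM + 1) of the 69 tested related genes on day 3 (left) and day 21 (right), 1 point a gene, in rows by list, filled where limma's adjusted p was under 0.05. On day 3, 40 points are filled, 12 of them above 0, and on day 21 only Nfatc3 is. The day 3 split is that of the deposited scale, where 23.4% of all genes rose and 19.8% fell. With the same-sum scaling 29 genes rose and 5 fell on day 3, beside 46.9% and 2.2% of all genes.

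Between day 21 and day 3, 16 of the 69 related genes were higher and 13 lower on day 21, beside 9.23% and 16.2% of all genes. The 7 triad genes that were higher on day 21 included Trdn (1.58, SE 0.40, limma adjusted p = 0.00537) and Hrc (1.21, SE 0.30, limma adjusted p = 0.00425), while 7 of the 8 general reticulum proteins were lower. Without day 3 replicate 4 these counts were 11 and 8. With the same-sum scaling, where the median of all tested genes was -0.41, 4 were higher and 23 lower, beside 1.16% and 33.1% of all genes.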

How the data were processed

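Poly-A mRNA of each muscle was sequenced with a library that did not keep strand. The authors aligned reads with HISAT2 2.0.5, counted them with featureCounts 1.5.0-p3 and deposited FPKM values per gene, which carry a scaling between samples. The genome build is not given in the sources used here, and the positions of all 9 genes match GENCODE M21 (GRCm38). Sequences are from GENCODE M21 and RefSeq. Whole reads were recovered from the FPKM steps within 0.01 of a read. Genes of at least 0.5 FPKM in at least 5 samples (14630) were fitted as log2(FPKM + 1), pseudocount 1, over all 5 groups with limma 3.58.1 (trend), R 4.3.3, with Benjamini-Hochberg adjustment over all 14630 at 0.05. The fit was tested on simulated data with 200 changed genes. Mean ± SD is over samples. The members and lists were chosen with earlier results of these data known. Related genes were named where they were among the 4 strongest called in each direction on day 3 or day 21, or pump micropeptides, with further examples chosen after their values were seen. Likeness named 5 genes at each end. Normalizations, filters, pseudocounts, weights, blocks and left-out libraries were tried as alternatives, those without day 7 replicates 3 and 6 or without Tnnc2 added after seeing the data.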

Additional observations from a re-analysis of the deposited data

Results flagged for a closer look

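A value was taken as standing apart where its gap to the nearest other sample of its group exceeded Dixon's 95% limit. Of 45 combinations of gene and group, 6 met it on FPKM values. Chance gives about 1 in 20 for independent, normally spread values. These combinations share the same 27 libraries and are not on a log scale, so nothing is read from the count. Sln was 138.1 FPKM in day 3 replicate 5, the highest of its group. Pln was 1.542 FPKM in day 7 replicate 6, the highest of its group. Atp2a2 was 6.82 FPKM in day 21 replicate 5, the lowest, and Ryr1 was 33.23 FPKM in day 3 replicate 4, the lowest. Jph1 was highest at 56.81 FPKM in day 7 replicate 3 and at 55.64 FPKM in day 21 replicate 4.

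Of the 10 related genes named by rule, 6 had a difference from no injury that itself differed between day 21 and day 3 (limma, adjusted p under 0.05). Of all tested genes, 9.23% were called higher and 16.2% lower on day 21 than on day 3. These 6 had been named for their large changes on day 3, and the same day 3 samples enter this comparison, so nothing is read from the count. The differences between the days were -2.074 for Mcub, -1.633 for Rcn1, -1.758 for Rcn3 and -1.995 for Smim6, and 1.34 for Myoz1 and 1.576 for Trdn, on the log2(FPKM + 1) scale.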

How the results depend on the processing

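Past the threshold on day 3 were 9 members, and 5 with the same-sum scaling (TPM). The day 7 count of 5 became 2 with TPM, with each sample's own total of reads, and relative to the myofibre markers with or without Tnnc2. It became 8 with sample quality weights or without day 7 replicates 3 and 6, and 3 with only the 2 groups compared or without day 3 replicate 5 and day 7 replicate 5. On day 21 it was 2, and 1 with TPM or own totals, where Atp2a2 lost its call. Between days 21 and 3 it was 7 (6 up, 1 down), and 3 with TPM (1 up, 2 down). With single libraries left out the counts ran from 8 to 9 on day 3 and 3 to 8 on day 7, and were 3 on day 14 and 2 on day 21 throughout.

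The related genes called, in either direction, numbered 27 on day 7, and 17 with only the 2 groups compared. On day 14 the 22 became 14 without the filter or with quantile normalization, 7 with TPM and 12 with own totals. On day 21 the 1 became 0 without the filter, with TPM, with own totals or without the trend, 18 with quality weights, 8 with only the 2 groups, 4 without day 3 replicate 5 and day 7 replicate 5, and 7 without day 7 replicates 3 and 6. Leave-one-out counts were 36 to 42 on day 3 and 18 to 32 on day 7. They were 13 to 26 on day 14, 0 to 3 on day 21 and 19 to 31 between days 21 and 3. The 13 on day 14 was without no injury replicate 5, day 14 replicate 4 or day 14 replicate 5. The call on day 21 became 0 without no injury replicate 1, 2, 4 or 5, day 3 replicate 1, 3 or 4, day 7 replicate 2 or 4, day 14 replicate 2 or 3, or day 21 replicate 1 or 2. The cause of these moves was not tested.

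Signs turned for Pln on day 3 relative to the myofibre markers (0.21, and 0.31 without Tnnc2), Atp2a1 on day 7 with quantile normalization (0.0262), and Ryr1 on day 7 with TPM (0.0765) and relative to the markers (0.007, and 0.0901 without Tnnc2), and for Pln between days 21 and 3 relative to the markers without Tnnc2 (-0.02). Differences past the threshold under neither scaling turned as well, among them Atp2a1 (0.05) and Casq1 (0.14) on day 14 and Casq1 on day 21 (0.17) with quantile normalization, Ryr1 on day 14 (0.04) and Casq1 on day 21 (0.11) with TPM, and Pln on days 7 (0.21), 14 (0.10) and 21 (0.24) relative to the markers. Among them too were Pvalb on day 21 with the replicate block by letter (-0.27), Pln on day 21 with TPM (0.06) and Casq1 on day 21 relative to the markers (0.19). They turned too for Nfatc3 with TPM on day 3 (0.0864) and day 7 (0.20) and with own totals on day 7 (0.0737), and for 1810037I17Rik on day 7 with TPM (0.59) and own totals (0.42).

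Samples of different groups share a replicate number. Deviations of 51 same-numbered pairs correlated with a median of -0.003, from -0.52 to 0.57, with 15 over 0.1. Such correlations cannot tell whether same-numbered samples share an animal or a processing step. With the replicate block by number the related genes called on day 21 were 5, and by the letter of the sample name 7, and no other count moved by over 1.5 times. Depth limits Pln, at 2 to 66 reads a sample, and Sln without injury, at 19 to 55.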
